A study of Homo sapiens with 15 samples.

Results

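Very isolated CpGs were defined here as autosomal CpGs with no other CpG within 100 bp on either side. They were found from the positions of the CpGs alone, without use of any methylation value, and made up 3678300 of the 27852739 autosomal CpGs of the deposited tables, or 13.2%. The median distance from a very isolated CpG to its nearest neighbour was 159 bp (quartiles 124 and 226 bp). By this distance, 2492532 lay over 100 to 200 bp from the nearest CpG, 1006877 over 200 to 400 bp and 178891 over 400 bp, of which 1464 exceeded 1000 bp.

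Whole-genome bisulfite sequencing gave the methylation (mC) of each CpG for 15 libraries of HCT116, an established human colorectal carcinoma cell line in which a doxycycline-inducible short hairpin RNA (shRNA) depleted either UHRF1 or DNMT1. UHRF1 was depleted in 3 isolated clones, named Cl.3, Cl.6 and Cl.9, whereas DNMT1 was depleted in bulk cells of 2 replicate populations, named R1 and R2. Each of these 5 cell populations gave 3 libraries: Baseline, taken on day 14 without doxycycline; Knockdown, taken on day 14 of doxycycline at 10 ng/mL; and Recovery, taken on day 28 after 14 days with doxycycline and 14 days without it. Both shRNAs targeted the 3′ untranslated region of the transcript, and the Baseline cells carried the integrated shRNA construct too. Clones stood only for shUHRF1 and bulk cells only for shDNMT1, so in every comparison of the shRNAs the depleted protein and the kind of population cannot be told apart. Each clone was 1 line of cells.

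DNMT1 copies methylation onto the newly made strand after DNA replication, and UHRF1 binds the hemimethylated CpG that replication leaves behind and brings DNMT1 to it. A maintenance enzyme that works along the DNA can move from one CpG to the next, so the spacing of CpGs is one of the features used to describe where methylation is kept or lost. Highly methylated domains (HMDs) hold most methylation of a cancer genome, whereas partially methylated domains (PMDs) are long, gene-poor regions where methylation has eroded.

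The sequence around very isolated CpGs was AT-rich. Within 100 bp on either side, GC content was 37.8% on average, against 43.9% at moderately isolated CpGs (nearest CpG at 36 to 100 bp) and 48.3% over all autosomal CpGs. Both bases next to the CpG were A or T at 38.9% of very isolated CpGs, 31.0% of moderately isolated CpGs and 24.7% of all autosomal CpGs. Of the very isolated CpGs, 40.5% lay in introns of protein-coding genes, 2.80% in their exons, 17.5% in other genes and 39.2% outside genes. Their exonic share was below that of all autosomal CpGs, at 8.56%. Between 52.9% and 57.4% of them lay in an HMD of the population's own Baseline domain call, and between 21.1% (Cl.9) and 46.4% (R1) in a PMD.

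The most isolated CpGs with 10 or more reads in every library show what such a site looks like. Each line gives 30 bases of the plus strand of hg38, 5′ to 3′, with the CpG in capitals. Sites 1 to 4 lay in the HMDs of all 5 populations, and sites 5 and 6 in the PMDs of all 5.
Site 1: ttgataagctttcaCGttttaaagagagaa
Site 2: acttcaatatatacCGgcagacctccattt
Site 3: gccataagtaacaaCGttggtatcactcaa
Site 4: gccttcagcactccCGccacccccacacac
Site 5: ccatgtatatgcaaCGttattattgataga
Site 6: atggtatgaggtaaCGgccaatctcttctc

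Site 1 (chr12:73032597-73032598) lay outside protein-coding genes, with its neighbours 1765 bp before and 1749 bp after it. Its mC in Cl.3 was 84.6% at Baseline, 81.2% at Knockdown and 94.4% at Recovery. In Cl.6 the same values were 100%, 73.9% and 81.8%, and in Cl.9 they were 96.8%, 43.9% and 53.8%. R1 went from 100% to 41.2% and back to 91.3%, and R2 from 100% to 54.5% and back to 92.6%. All 5 Knockdown values lay below the lowest Baseline value of the site, by the least in Cl.3. Single sites were covered by 12 to 41 reads here, and the widest 95% Wilson interval of a value spanned 38.4 points, so that a single site carried little precision. Over the 12 sites described here, the widest interval of a site spanned between 30.6 and 51.9 points.

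Site 2 (chr4:80075592-80075593), in an intron of ANTXR2, which encodes a cell-surface receptor for anthrax toxin, had its nearest CpG 1733 bp away. Its Knockdown mC was 96.2% in Cl.3, 91.3% in Cl.6 and 88.0% in Cl.9, but 53.6% in R1 and 50% in R2, from Baseline values of 97.4% to 100%. The Knockdown values of the clones lay above those of the bulk populations, although the 95% Wilson intervals of Cl.9 (70.0% to 95.8%) and R1 (35.8% to 70.5%) touched. At Recovery all 5 stood between 95.8% and 100%. Site 4 (chr1:196097032-196097033), outside protein-coding genes, stood at 100% in Cl.3 and Cl.6, 64% in Cl.9, 70.6% in R1 and 37.5% in R2 at Knockdown. Site 3 (chr7:119295891-119295892), also outside protein-coding genes, was only partly methylated at Baseline, between 50% in Cl.3 and 63.6% in R2. At Knockdown it stood between 7.7% in R2 and 50% in R1, and at Recovery between 9.1% in Cl.9 and 94.7% in R1.

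The PMD sites 5 and 6 varied in Baseline level between populations, and the values of site 6 overlapped those of site 3 in the HMDs. Site 5 (chr1:80095617-80095618), 2090 bp from its nearest CpG and outside protein-coding genes, had a Baseline mC of 57.1% in Cl.3, 40.9% in Cl.6, 4.0% in Cl.9, 42.9% in R1 and 37.5% in R2. Site 6 (chr14:93503961-93503962), in an intron of UNC79, which encodes a subunit of the NALCN sodium leak channel complex, had a Baseline mC between 52.4% in Cl.3 and 88.1% in Cl.9. Cl.3 stood at 46.7% at Knockdown and 35.3% at Recovery, Cl.6 at 52.9% and 52.4%, and Cl.9 at 20.0% and 26.5%, from Baseline values of 52.4%, 53.8% and 88.1%. R1 stood at 30.4% and 60.9%, and R2 at 16.7% and 61.1%, respectively.

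Covering reads summed over the autosomal CpGs came to between 309268341 and 577680690 per library, where a read over several CpGs counts once for each. Very isolated CpGs had a mean of 13.1 to 24.7 reads per library, and 90.8% to 94.3% of them had at least 5 reads. A CpG entered a level or a change of a population when all 3 of that population's libraries had at least 5 reads. Between 4.80% and 7.44% of the members had the same methylated and total counts in the 105 pairs of libraries, so no library had been deposited more than once.

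Averaged over all very isolated CpGs, mC fell in all 5 populations at Knockdown, and it came back nearly in full only where DNMT1 had been depleted. Baseline mC was 67.6% in Cl.3, 69.1% in Cl.6, 64.8% in Cl.9, 67.4% in R1 and 67.4% in R2. The Knockdown means were 54.0% in Cl.3, 49.1% in Cl.6, 34.2% in Cl.9, 34.2% in R1 and 33.6% in R2. After Recovery it stood at 59.3% in Cl.3, 58.1% in Cl.6, 45.0% in Cl.9, 66.0% in R1 and 66.1% in R2. The Knockdown and Recovery values of the 3 clones lay below all Baseline values, whereas those of R1 and R2 at Recovery differed from their own Baseline by -1.36 points on average. Baseline was of day 14 and Recovery of day 28, and no untreated library of day 28 was among the samples. In comparisons of these stages, the return and the added time in culture cannot be told apart.

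**Figure D1:**
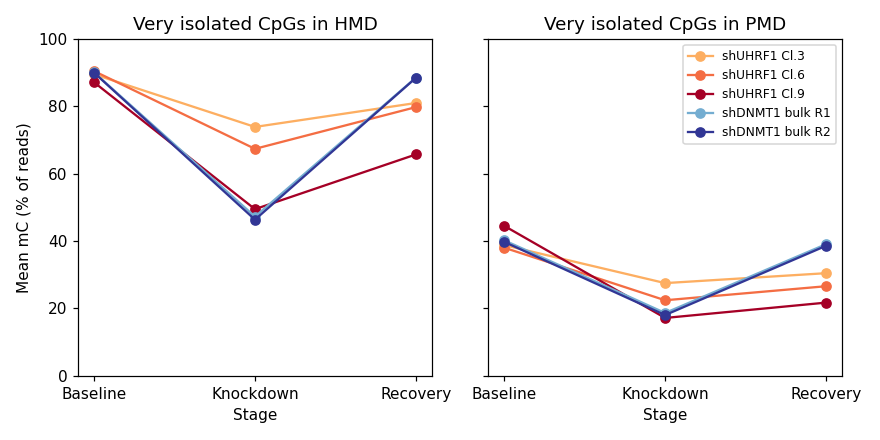
Mean mC (%) of very isolated CpGs in HMDs and PMDs at Baseline, Knockdown and Recovery, 1 line per cell population. In HMDs the bulk populations returned to 88.5% and 88.4%, whereas the clones stood at 81.0%, 79.7% and 65.7% at Recovery.

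The mean change at Knockdown (ΔmC) was -21.5 ± 8.60 points with shUHRF1 (SD, n = 3) and -33.5 ± 0.46 points with shDNMT1 (SD, n = 2). The exact two-sided sign-flip test over populations gave p = 0.25 for the former and p = 0.5 for the latter, each the smallest value that its number of populations allows. At Recovery the difference from Baseline was -13.0 ± 6.0 points with shUHRF1. The share of the lost methylation that was regained was 39.0% in Cl.3, 45.2% in Cl.6 and 35.4% in Cl.9, against 95.9% in R1 and 96.0% in R2. The regained share was 39.9 ± 4.92% with shUHRF1 (SD, n = 3) and 95.9 ± 0.06% with shDNMT1 (SD, n = 2), a difference of -56.1 percentage points with p = 0.1 in an exact two-sided permutation test of 3 against 2 populations, the smallest p that this design allows. For the Knockdown change itself, the difference was 12 points and the exact permutation p was 0.2. The replicates of each group may share cultures or handling, so these p-values measure the spread between the deposited samples only. Other CpGs behaved much alike. Over all autosomal CpGs, the mean Knockdown change was -20.1 points with shUHRF1 and -35.1 with shDNMT1, and the regained share was 42.8% and 96.7%. At moderately isolated CpGs (nearest CpG at 36 to 100 bp), the change was -24.4 and -37.6 points and the regained share 40.3% and 96.1%.

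Read counts of very isolated CpGs summed in 1-Mb windows gave the same picture along the autosomes. In edgeR's quasi-likelihood test of methylated against unmethylated reads, with Benjamini-Hochberg adjustment, all 2738 windows with enough very isolated CpGs had lower odds of methylation at Knockdown with shUHRF1, and so did 10969 of the 10971 windows of the 4 distance classes tested together (100% after rounding). With shDNMT1, all 2738 were lower as well (10970, or 100% after rounding, of all windows tested). The median log2 odds ratio over the windows of very isolated CpGs was -1.71 with shUHRF1 and -2.47 with shDNMT1. At Recovery with shUHRF1, all 2738 windows remained lower than Baseline (97.8% of all windows tested), with a median log2 odds ratio of -1.10, and 2218 did so without the block for the cell population. At Recovery with shDNMT1, 0 windows were called (0% of all windows tested), 0 had an unadjusted p under 0.05 and limma also called 0, although the median log2 odds ratio was -0.12. The fit shared 1 estimate of spread over all 15 libraries. Without Cl.9, 74 windows had an unadjusted p under 0.05 in edgeR's test, and 0 were called. The count of 0 therefore cannot show that no difference from Baseline remained. The Knockdown change differed between the shRNAs in 1444 windows, all with a smaller change for shUHRF1 (64.2% of all windows tested were called in that direction). That count was 0 without R1 or without R2, 1 without Cl.6 and 2505 without Cl.9, and 0 without the block for the cell population.

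In HMDs, very isolated CpGs lost nearly as much methylation as they kept in the bulk populations, and a part that varied between clones. HMD and PMD were called from Baseline methylation, so the Baseline contrast between them is part of how they were defined. In HMDs, Baseline mC was 89.5% in Cl.3, 90.4% in Cl.6, 87.1% in Cl.9, 90.0% in R1 and 90.0% in R2, and the Knockdown change was -15.6, -23.1, -37.6, -42.8 and -43.6 points. In PMDs, Baseline mC was 38.8%, 38.0%, 44.5%, 40.2% and 39.8%, and the change was -11.3, -15.6, -27.3, -21.6 and -21.7 points. The PMD class also held CpGs of low-methylated or unmethylated regions called inside a PMD, and these were not separated. Low-methylated and unmethylated regions, inside or outside PMDs, held 10.2% and 13.2% of very isolated CpGs in R1. There, 52.9% lay in an HMD and 46.4% in a PMD. In Cl.9 these regions held 8.68% and 16.8%, with 57.2% in an HMD and 21.1% in a PMD. The shares of such regions within PMDs alone were not computed, and their part in the PMD values was not tested. The regained share was lower in PMDs than in HMDs in every population. In HMDs it was 45.5% in Cl.3, 53.7% in Cl.6, 43.1% in Cl.9, 96.4% in R1 and 96.5% in R2. In PMDs it was 26.1% in Cl.3, 26.7% in Cl.6, 16.7% in Cl.9, 94.6% in R1 and 94.7% in R2.

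Very isolated CpGs lost less methylation than moderately isolated CpGs in the same kind of domain. In HMDs, the change at moderately isolated CpGs was -17.3 points in Cl.3, -25.2 in Cl.6, -40.4 in Cl.9, -45.2 in R1 and -46.1 in R2. The difference, very minus moderately isolated, was +1.70, +2.11, +2.74, +2.44 and +2.54 points, or 2.18 ± 0.53 points with shUHRF1 (SD, n = 3) and 2.49 ± 0.07 with shDNMT1 (SD, n = 2). In PMDs it was +2.15, +2.86, +2.51, +3.72 and +3.76 points. All 5 populations had the same sign in both kinds of domain, and the exact sign-flip test over the 5 populations gave p = 0.0625, the smallest that 5 populations allow. Set against shDNMT1, the value for shUHRF1 differed by -1.24 points in PMDs (exact permutation p = 0.1) and by -0.31 points in HMDs (exact permutation p = 0.6). The latter was -0.065 points without Cl.3 and -0.59 points without Cl.9. The PMD value turned to +0.11 points at a Baseline mC of at least 85%, and the HMD value to +0.20 points with flanking bases weighted to a common mix.

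With the classes of flanking bases and GC content weighted to the mix of the very isolated CpGs, an alternative added after the data had been seen, the difference in HMDs was 1.70 points with shUHRF1 and 2.20 points with shDNMT1, and in PMDs it was 1.70 and 2.32 points. The direction depended on the class compared. Against CpGs with a neighbour at 20 to 35 bp in HMDs, very isolated CpGs differed by -0.29 points in Cl.3, -0.17 in Cl.6 and +0.21 in Cl.9, a mean of -0.082 points that was +0.022 without Cl.3, -0.039 without Cl.6 and -0.23 without Cl.9. In R1 and R2 they lost less than this class, by 2.01 and 2.33 points. Against CpGs with a neighbour at 2 to 19 bp in HMDs they lost more, by -9.57 points with shUHRF1 and by -5.64 points with shDNMT1. In HMDs the loss was therefore not a steady function of distance. Among CpGs with a neighbour within 100 bp, it was largest at 51 to 70 bp in the clones, where the change was -17.7 points in Cl.3, -25.6 in Cl.6 and -40.9 in Cl.9. In the bulk populations it was largest at 36 to 50 bp, but nearly as large at 51 to 70 bp. The change in these bins was -45.44 and -45.41 points in R1, and -46.45 and -46.32 points in R2. At a Baseline mC of at least 85%, it was -47.69 and -48.10 points in R1, and -48.52 and -48.82 points in R2. At that Baseline, the largest loss within 100 bp thus lay at 51 to 70 bp in the clones and the bulk populations alike.

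By window, limma called very isolated CpGs as having lost less than moderately isolated CpGs in 2479 of 2738 windows with shUHRF1 (90.5%) and in 2516 with shDNMT1 (91.9%) at an adjusted p under 0.05. They had lost more in 8 windows (0.292%) and 12 windows (0.438%), respectively. These windows pooled the CpGs of all domains, over which the Baseline mC of very isolated CpGs was lower, at 67.2% against 72.2% with shUHRF1 and 67.4% against 72.5% with shDNMT1. The part of this mix in the window counts was not tested. The difference between the classes was itself different between the shRNAs in 35 windows, with the more positive value for shUHRF1 in 7 (0.256%) and for shDNMT1 in 28 (1.02%). Without Cl.9 these counts were 21 and 395. The 7 windows became 12 without Cl.6 and 4 without R2, and the 28 became 10 without Cl.3, 17 without R1 and 7 without R2. Without the block for the cell population, both counts were 0. On the log odds scale, edgeR's interaction test called 0 windows for either shRNA, with 3 at an unadjusted p under 0.05 for each. That test differed from limma's both in the method and in the scale.

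Beyond 100 bp, the loss in HMDs rose and fell with the distance to the nearest CpG. In 10-bp bins of that distance, the smallest loss between 150 and 250 bp lay in the bin that starts at 180 bp in all 5 populations, at -13.7 points in Cl.3, -20.9 in Cl.6, -34.8 in Cl.9, -40.4 in R1 and -41.2 in R2. The largest loss that followed lay in the bins starting at 260 or 270 bp, at -16.9, -24.5, -39.4, -44 and -44.8 points. A second minimum of loss lay in the bins starting at 350 to 370 bp, at -14, -21.2, -35.4, -40.9 and -41.8 points. A second maximum lay in the bins starting at 440 to 460 bp, at -17.2, -24.6, -39.5, -44.2 and -44.9 points. Baseline mC had its high and low points near the same distances. In Cl.6 it stood at 91.5% in the bin starting at 180 bp and at 89.3% in the bin starting at 260 bp, and then at 90.8% (350 bp) and 88.8% (460 bp).

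**Figure D2:**
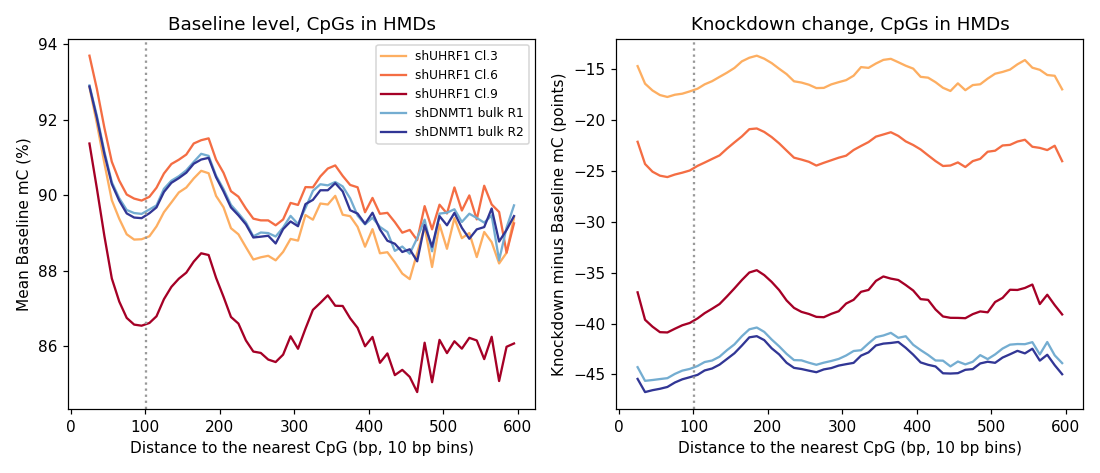
Mean Baseline mC (%) and Knockdown change (percentage points) of CpGs in HMDs, 1 line per cell population. CpGs are placed by the distance to the nearest CpG in 10-bp bins. A dotted line marks 100 bp, beyond which lie the very isolated CpGs. Beyond it, the loss had low points near 180 bp and near 360 bp and high points near 260 bp and near 450 bp in all 5 populations.

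For values per population, the bins were joined into bands that were chosen after the profile had been seen, so these values are a description. The loss was smaller from 170 to 190 bp than from 250 to 280 bp by 3.57 ± 0.73 points with shUHRF1 (SD, n = 3) and by 3.38 ± 0.06 points with shDNMT1 (SD, n = 2). It was smaller from 350 to 370 bp than from 440 to 470 bp by 3.30 ± 0.60 and 2.89 ± 0.06 points, respectively. The first of these differences had the same sign on 22 of 22 autosomes in every population, with a median over autosomes of 2.80 points in Cl.3, 3.29 in Cl.6, 4.25 in Cl.9, 3.45 in R1 and 3.25 in R2. The second had it on 21, 20, 21, 20 and 20 autosomes, respectively. Within 12 subsets of the members, namely by flanking bases, quintile of GC content, intergenic or intronic place, depth and a Baseline mC of at least 85%, both differences were positive in 60 of 60 values, between 1.40 and 5.40 points for the first and between 1.46 and 4.85 points for the second.

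In Cl.6, GC content within 100 bp was 37.8%, 36.5%, 35.8% and 35.1% in the bins starting at 180, 260, 350 and 450 bp, and the share with A or T on both sides 38.7%, 41.2%, 41.8% and 44%. The mean depth at Baseline stayed between 15.5 and 17.1 reads in Cl.6 between 100 and 500 bp. The regained share also differed between these bins. In Cl.6 it went from 56.3% (bin from 180 bp) to 51.2% (260 bp) and back to 55.7% (350 bp), and in R1 the same bins held 96.9%, 95.9% and 96.6%.

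The farther of the 2 neighbouring CpGs gave turns at like distances. Among members whose nearer CpG lay at most 150 bp away, the farther one was free to vary. For these members, 20-bp bins were searched from 140 to 240, 320 to 420 and 500 to 600 bp for the smallest HMD loss. It lay in the bins starting at 180, 360 and 540 bp, respectively, in all 5 populations. In Cl.9 the change at these distances was -36.6, -37.0 and -37.5 points. Largest losses were sought from 220 to 320, 400 to 500 and 600 to 700 bp. In Cl.9 they were -40.0, -39.3 and -40.1 points, in the bins starting at 260, 440 and 640 bp. In R2 the smallest losses of the searched ranges were -42.7, -43 and -43.5 points, and the largest -45.4, -45.2 and -45.2 points.

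**Figure D3:**
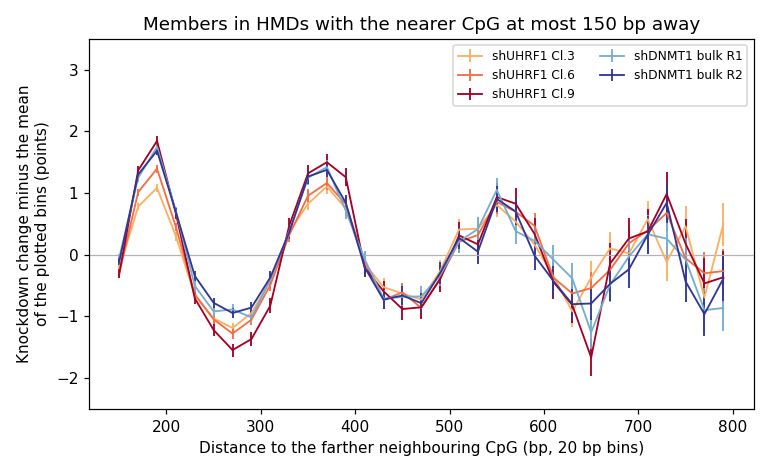
Knockdown change in HMDs against the distance to the farther of the 2 neighbouring CpGs (20-bp bins), for very isolated CpGs whose nearer neighbour lay within 150 bp, plotted as the difference from each population's mean over the bins, with the standard error over CpGs. All 5 lines turned at 180, 360 and 540 bp.

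In PMDs the first difference was of the opposite sign in every population, at -0.51 points in Cl.3, -1.14 in Cl.6, -1.56 in Cl.9, -2.56 in R1 and -2.72 in R2. The second was +0.011, -0.35, -0.91, -0.85 and -1.24 points, respectively. Its mean over the clones, -0.41 points, was -0.17 points without Cl.9 and -0.63 points without Cl.3. Baseline mC itself varied more with distance there, for example 40.5% at 180 bp against 34.1% at 260 bp in Cl.6. Among PMD members with a Baseline mC of at least 85%, the differences were +3.53 and +2.40 points with shUHRF1 and +3.31 and +2.57 points with shDNMT1, with the same sign as in HMDs. These members were chosen by the same Baseline values that enter the change, and the part of this choice was not tested.

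Members over 400 bp from another CpG were also compared with the nearest class as a whole. In HMDs, members over 400 bp from the nearest CpG changed by -16.2 points in Cl.3, -23.6 in Cl.6, -38.4 in Cl.9, -43.3 in R1 and -44.2 in R2. The difference from members over 100 to 200 bp away was -0.58, -0.58, -0.88, -0.62 and -0.61 points (exact sign-flip p = 0.0625 over 5 populations). With the flanking bases weighted to a common mix, it was +0.086 points with shUHRF1, and with GC content weighted as well it was -0.56 points. The 612 to 695 HMD members over 1000 bp away changed by -17.8 points in Cl.3, -25.1 in Cl.6, -40.8 in Cl.9, -45.1 in R1 and -45.5 in R2. Members over 100 to 200 bp away changed by -15.6, -23.0, -37.6, -42.7 and -43.6 points, and this gap was not tested. In PMDs the difference was +0.84, +1.39, +1.16, +2.80 and +2.90 points, but -1.54 points with shUHRF1 and -1.25 points with shDNMT1 among members with a Baseline mC of at least 85%.

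The bases next to the CpG separated very isolated CpGs more than distance did. In HMDs the loss was largest at aCGt, with a change of -21.2 points in Cl.3, -29.2 in Cl.6 and -45.0 in Cl.9, and at aCGa, with -45.9 in R1 and -46.7 in R2. It was smallest at gCGc in all 5 populations, with -7.84, -13.8, -22.3, -33.4 and -34.3 points. Baseline mC was lowest at tCGa, 83.4% in Cl.3 and 80.0% in Cl.9, and highest at gCGc, 94.5% and 93.4%. The regained share ran from 36.3% at tCGa to 62.8% at gCGc in Cl.3, from 43.5% to 72.0% in Cl.6 and from 29.8% to 64.8% in Cl.9. In R1 and R2 it lay between 95.3% and 98.1% at all 10 flank classes. In these classes a sequence and its reverse complement were counted together.

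With the 2 bases on either side, the 120 classes of very isolated CpGs in HMDs ranged from -28.9 to -3.88 points in Cl.3, from -54.6 to -13.4 in Cl.9 and from -51.2 to -24.4 in R1. The largest mean loss over the clones was at aaCGtt (-38.8 ± 11.4 points, SD, n = 3), followed by gaCGtc (-38.6) and aaCGtc (-38.6). The smallest was at tgCGca (-8.76 ± 4.79 points, SD, n = 3), then agCGca (-10.8) and agCGct (-12.5). At tgCGca the change was -3.88, -8.94, -13.4, -24.4 and -25.3 points, the smallest of all classes in each of the 5 populations. The order of the 120 classes was similar between populations, as Spearman's correlation with Cl.9 was 0.99 in Cl.3, 0.99 in Cl.6, 0.97 in R1 and 0.96 in R2. These classes share libraries and the genome, and the correlations are given as a description across classes.

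**Figure D4:**
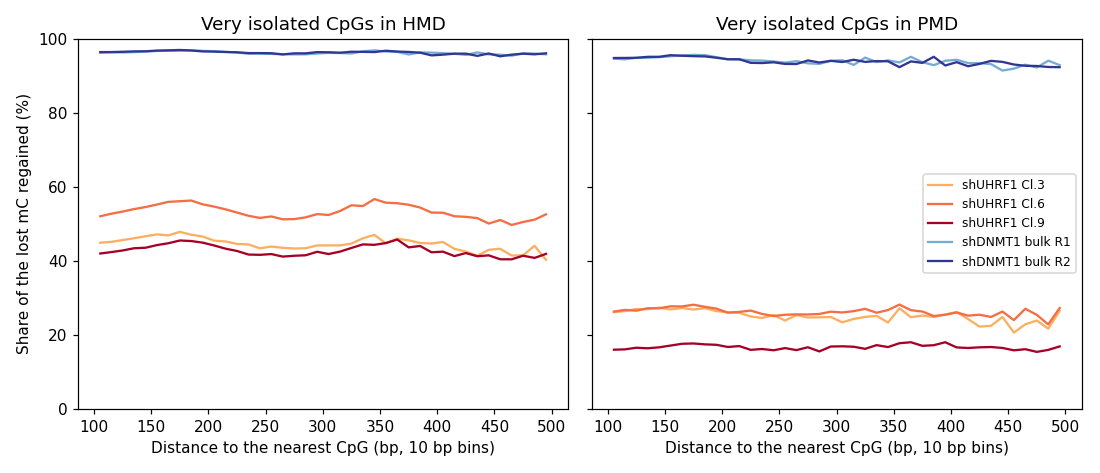
Share of the lost methylation regained (%) at very isolated CpGs in HMDs and in PMDs, 1 line per cell population. CpGs are placed by the distance to the nearest CpG in 10-bp bins. In HMDs, the bin starting at 180 bp held 47.1% in Cl.3, 56.3% in Cl.6, 45.4% in Cl.9, 96.9% in R1 and 96.9% in R2.

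The HMD loss was also grouped by GC content within 100 bp, with flanking bases not held alike between the groups. Over 5 groups separated at the quintiles of GC content of all very isolated CpGs, the change stayed within -38.3 to -37.0 points for Cl.9 and within -43.4 to -42.4 points for R1. By place, members in introns of protein-coding genes changed by -15.4 points in Cl.3, -37.3 in Cl.9 and -43.1 in R1. Members outside genes changed by -15.9, -38.0 and -42.3 points. Members within 1 kb of the start of a protein-coding gene changed more, by -19.6, -26.7, -41.1, -44.8 and -45.8 points in Cl.3, Cl.6, Cl.9, R1 and R2. By chromosome, the change in Cl.9 ran from -39.6 points on chromosome 22 to -36.6 points on chromosome 13, and chromosome 22 had the largest loss in all 5 populations.

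The average hid different distributions in the clones and in the bulk populations. Among HMD members with at least 10 reads in the population's 3 libraries, 74% to 81.5% were at least 90% methylated at Baseline. At Knockdown that share was 30.7% in Cl.3, 13.8% in Cl.6, 3.08% in Cl.9, 0.58% in R1 and 0.56% in R2. At Recovery it was 51.1%, 46.9%, 24.1%, 71.2% and 71.1%. Values at or below 10% stayed few at Knockdown, from 3.5% in R1 to 8.81% in Cl.9. The quartiles at Knockdown were 30.0% and 70.0% in Cl.9 and 35.1% and 60.0% in R1, around medians of 52.0% and 47.6%.

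**Figure D5:**
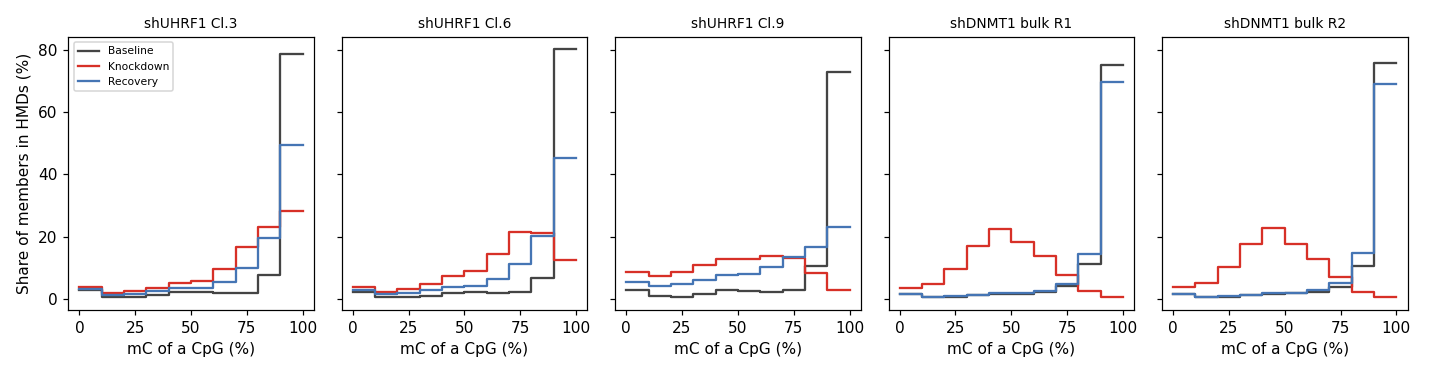
Share of very isolated CpGs (%) in HMDs by mC (%) at Baseline, Knockdown and Recovery, for each cell population, over CpGs with at least 10 reads. R1 and R2 moved as 1 broad peak and returned, whereas the clones kept a tail of lower values at Recovery.

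A CpG was called highly methylated at a Baseline mC of at least 85%, hypomethylated when Knockdown was at least 30 points lower, and recovered when Recovery came within 30 points of Baseline. Of the highly methylated very isolated CpGs, 20.5% were hypomethylated in Cl.3 (16.1% of all highly methylated autosomal CpGs), 34.5% in Cl.6 (27.6%), 66.6% in Cl.9 (54.0%), 83.4% in R1 (77.2%) and 84.3% in R2 (78.7%). At moderately isolated CpGs these shares were higher still, at 23.7%, 39.2%, 70.9%, 87.1% and 88.1%, respectively. Measured between the Baseline libraries of 2 different clones, the same rule called 4.57% to 8.60%, and between those of R1 and R2, 0.48% to 0.50%. The Baseline background was thus below the Knockdown share in every population. Of the hypomethylated very isolated CpGs, 67.3% were recovered in Cl.3 (69.0% of all hypomethylated autosomal CpGs), 69.6% in Cl.6 (70.6%), 49.3% in Cl.9 (52.6%), 99.0% in R1 (99.1%) and 99.1% in R2 (99.2%). These shares lay near those over all CpGs in every population. In PMDs, 22.5% of the hypomethylated members of Cl.9 were recovered, against 54.7% in HMDs. Over all autosomal CpGs these shares were 28.3% and 58.6%.

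The same very isolated CpGs could be followed in all populations where depth allowed. At least 10 reads in all 15 libraries were found at 1842285 of them, and 811235 of these were highly methylated in all 5 populations. Of those, 34.9% were hypomethylated in 0 of the 3 clones (44.4% of the 5199171 autosomal CpGs that met the same criteria), 37.3% in 1 (32.9%), 19.4% in 2 (16%) and 8.34% in 3 (6.63%). In both bulk populations 74% were hypomethylated (68.0%). In all 5 populations 66198 were hypomethylated, or 8.16% (6.50%), and in none 51997, or 6.41% (10.6%). Of the CpGs hypomethylated in Cl.3, 95.1% were also hypomethylated in Cl.9, where 61.9% of the 811235 were (94.0% and 52.5% over all autosomal CpGs). Of those hypomethylated in Cl.9, 20.0% were so in Cl.3, where 13% of the 811235 were (18.9% and 10.5%). Hypomethylated and not recovered were 11642 CpGs, or 1.44%, in all 3 clones (1.10% over all autosomal CpGs) and 24, or 0.00296%, in both bulk populations (0.00173%). Across these CpGs, the Knockdown changes of 2 populations correlated with Pearson's r between 0.41 (Cl.3 and R2) and 0.59 (Cl.6 and Cl.9), as a description over CpGs that share libraries.

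Sites at the extremes of the change were chosen by their own loss averaged over the clones, among members inside protein-coding genes with at least 15 reads in all 15 libraries, a Baseline mC of at least 85% in all 5 populations and a place in the HMDs of all 5, and their values are a description. The sequences are shown for comparison with the flank classes, as 30 bases of the plus strand of hg38 with the CpG in capitals. Sites 8, 9 and 10 were among those with the largest and sites 11, 13 and 14 among those with the smallest mean loss, and all 6 lay in introns of protein-coding genes.
Site 8: ataaaatagaaaatCGtttattaaagttta
Site 9: taaaatcttaaaaaCGttttttaaaaggat
Site 10: gaatacctgccaggCGtccagcactggaga
Site 11: ggtgccagaggttgCGgaatggagattgga
Site 13: tcattttgagttttCGaatctgaaataatg
Site 14: caggtatgagctacCGcacttggcccagcc

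Site 8 (chr17:50864365-50864366) lay in TOB1, which encodes an antiproliferative protein, and its clones stood at 11.1%, 0% and 0% at Knockdown and at 11.9%, 14.3% and 10.0% at Recovery. The 33 reads of Cl.6 and 67 of Cl.9 at Knockdown were all unmethylated, with upper Wilson bounds (95%) of 10.4% and 5.42%. Site 9 (chr10:101921157-101921158) lay in ARMH3, and its Recovery values were 19%, 16.1% and 2.86% in the clones, against 81.8% and 77.8% in the bulk populations. Site 10 (chr9:121691179-121691180), in DAB2IP, which encodes a Ras GTPase-activating protein, stood at 11.1%, 8.33% and 2.86% in the clones at Knockdown and at 50%, 30.4% and 41.2% at Recovery.

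At the other end, the high values of the clones at Knockdown follow from how the sites were chosen, and the Knockdown and Recovery values of R1 and R2 did not enter the choice. Site 11 (chr13:33222307-33222308), in STARD13, which encodes a GTPase-activating protein, had a Knockdown mC of 100%, 100% and 92.0% in the clones and of 58.8% and 82.6% in R1 and R2. Site 13 (chr12:93763499-93763500), in CRADD, which encodes a death-domain adaptor, stood at 100%, 94.7% and 100% in the clones and at 62.5% and 86.4% in R1 and R2. Site 14 (chr4:39915649-39915650), in PDS5A, which encodes a cohesin regulator, stood at 100%, 100% and 94.6%, and at 60.9% and 72.2%.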

How the data were processed

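As the study's methods and the submitters' processing notes give it, the authors used Meth10X 1.2 to align bisulfite reads to hg38. The deposited tables hold, for each CpG, counts of methylated and of all reads per library with both strands joined. How duplicate reads and sequence variants were treated is not given in the sources used here, and both can move a CpG's mC. The deposited Baseline domain calls gave PMDs, and HMDs as the regions outside PMDs and outside low-methylated and unmethylated regions (bedtools 2.25.0) that also passed the authors' minimum of mean mC, which sets their high Baseline level. The tables of Cl.3 and Cl.6, of Cl.9 and of the bulk populations were separate, and all their columns belonged to these samples.

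From these, the distance from each autosomal CpG to the nearest other CpG of the tables was taken before any filter on reads, and mC was computed as methylated over all reads. A CpG needed 5 reads in each library compared. Levels were means over CpGs with equal weight, and changes were taken within a population. The replicate numbers were used to pair the samples. For the shUHRF1 cells a number names a clone, and for the bulk cells the pairing rests on the number in the labels alone. In 2738 windows, the deviations of a clone's libraries from the group means correlated between 0.40 and 0.98, and those of R1 and R2 between -0.0006 and 0.09.

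Populations were compared by exact two-sided sign-flip and permutation tests. Windows of 1 Mb were kept where each library had 20 CpGs and 100 reads or more, and were tested with edgeR 4.0.16 (quasi-likelihood, library effects and population block, 15 libraries in 1 fit) and with limma 3.58.1 on R 4.3.3, with Benjamini-Hochberg adjustment at 0.05. Both steps were tested on simulated data first. Other steps used Python 3.11.15 with numpy 2.4.6, pandas 2.3.3 and matplotlib 3.10.9. Sequences were read from hg38, and genes from GENCODE 44. Intervals are 95% Wilson intervals and cover counting error only.

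The members, classes and lists were chosen with earlier results of these data known, and the distance bands after the profile was seen. Named CpGs had 10 reads in all 15 libraries (15 reads for those chosen by their loss) and lay outside chromosome 8, with no gap of unknown bases to either neighbour. They were the 4 in HMDs and the 2 in PMDs farthest from another CpG, and the 4 with the largest and the 4 with the smallest mean loss over the clones, of which 1 each is not reported here. Of the classes of flanking bases, those with the highest and the lowest loss were named. Alternatives covered the minimum of reads, pooled reads, highly methylated CpGs, shared CpGs and domains, flanking bases, comparison classes, call thresholds, the block, the test and leaving out each population.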

Additional observations from a re-analysis of the deposited data

Results flagged for a closer look

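Of the results compared between shRNAs, 2 differed by a test of the difference itself. In 1444 of 2738 windows of very isolated CpGs, edgeR called a Knockdown change that differed between shUHRF1 and shDNMT1 (64.2% of all windows tested). The count was 0 without the replicate block, 1 without Cl.6 and 2505 without Cl.9. In 35 windows, limma called a difference between the shRNAs in how much less very isolated CpGs lost than moderately isolated CpGs. That count was made up of 7 and 28 windows in the 2 directions, against 0 and 0 without the replicate block and by edgeR's interaction test, 21 and 395 without Cl.9 and 4 and 7 without R2. The shRNA and the kind of population cannot be told apart in either.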

How the results depend on the processing

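The loss at Knockdown, the incomplete return in the clones and the smaller loss at very than at moderately isolated CpGs kept their direction under every alternative run, except in HMDs against CpGs at 2 to 19 bp and, with shUHRF1, at 20 to 35 bp. Over 51 results, 446 alternative values were computed, of which 396 kept direction and call. Limits came from 2 or 3 populations per shRNA, which set the smallest p that the exact tests allow, and from the small number of reads at any single CpG. Leaving out soft-masked repeats was not run, since the sequence used here carries no masking. Where a cause is not named, the cause was not tested.

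Very minus moderately isolated CpGs in HMDs became -0.082 points (shUHRF1, between -0.29 in Cl.3 and +0.21 in Cl.9) against the class at 20 to 35 bp, where shDNMT1 stood at +2.17, and -9.57 (shUHRF1) and -5.64 (shDNMT1) against 2 to 19 bp. Members over 400 bp minus over 100 to 200 bp turned to +0.086 points in HMDs with flanking bases standardised (shUHRF1), and in PMDs to -1.54 (shUHRF1) and -1.25 (shDNMT1) at a Baseline mC of at least 0.85. Also at that Baseline, the band differences in PMDs turned to +3.53 and +2.40 points (shUHRF1) and to +3.31 and +2.57 (shDNMT1). CpGs at that Baseline were chosen by the library that also enters their change.

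Between shRNAs, the difference in very minus moderately isolated CpGs in HMDs ran from -0.59 (without Cl.9) to -0.065 (without Cl.3) points. It turned to +0.20 points in HMDs with flanking bases standardised, and in PMDs to +0.11 at a Baseline mC of at least 0.85 and to +0.34 (percent of Baseline) relative to the Baseline level. The difference in members over 400 bp in HMDs turned to +0.24 points both at that Baseline and with flanking bases standardised, and to +0.030 without Cl.9, where leaving out each population gave -0.12 to +0.030.

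The regained share with shDNMT1 was 97.0% with reads summed over CpGs and 94.5% at a Baseline mC of at least 0.85. With a loss of 0.5 the hypomethylated share was 16.8% (shUHRF1) and 43.3% (shDNMT1), and with a loss of 0.2 it was 94.5% (shDNMT1). The recovered share within 0.2 of Baseline was 42.4% (shUHRF1) and 96.4% (shDNMT1), and at over 70% of the loss regained it was 26.8% and 93.7%. With shDNMT1 it was 99.4% at 10 reads and 99.2% at 5 reads in all 15 libraries.

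Without the replicate block, the Knockdown change was -21.4 points with shUHRF1 (exact permutation p = 0.1) and -33.4 with shDNMT1 (exact permutation p = 0.333), and the regained share with shDNMT1 was 96.0%. Without it, edgeR called 0 windows for the difference between shRNAs, and limma called 7 windows with more loss for shDNMT1 and 0 and 0 for the difference between shRNAs. It also called 2218 in place of 2738 windows at shUHRF1 Recovery, and limma 2256 (shUHRF1) and 2311 (shDNMT1) windows with less loss. No other count of calls changed by over 1.5 times, and no other result crossed its threshold.

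Leaving out each population gave 0 to 2505 windows for the difference between shRNAs. With each clone left out in turn, the value of very minus moderately isolated CpGs was higher for shUHRF1 than for shDNMT1 in 6 to 21 windows. It was lower for shUHRF1 in 10 to 395 windows. The 395 were without Cl.9 and the 10 without Cl.3. In the main setting the median value over windows was positive for both shRNAs, at 1.85 and 2.17 points. Windows with more loss numbered 6 to 10 (shUHRF1) and 12 to 15 (shDNMT1), and 4 (shUHRF1) with at least 100 CpGs per window. On the log odds scale edgeR called 0 windows for either shRNA and 0 for their difference.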
